A study of Mus musculus with 12 samples.

Results

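The genes described here are 6 metabotropic glutamate receptor genes, Grm2, Grm3, Grm4, Grm5, Grm7 and Grm8. They were chosen by name from the 35775 gene rows of a hippocampal RNA-seq count table, and each matched 1 row by its Ensembl gene ID. All 6 passed the filter on low counts and were among the 16163 genes tested. The mice were C57BL/6 males, 8 weeks old, and the hippocampus of 3 independent mice was sampled in each of 4 groups, 12 mice in all. F1_Dep were sons of males in which stress had induced a depressed state. F1_Ctl were sons of normal males. F0_Dep were males that had themselves been brought to a depressed state by stress, and F0_Ctl were normal males. No group carried a transgene or engineered allele, according to the labels, and the sources used here do not say how the stress was applied. The labels name no father or litter, so sons of a group may share one. The F1_Ctl labels alone carry sequencing lane names, so any effect of a separate sequencing run on F1_Ctl cannot be told apart from that of the group.

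Metabotropic glutamate receptors are G protein-coupled receptors that answer the transmitter glutamate with slow, modulatory signals, unlike the ion channels that carry fast excitation. The receptor encoded by Grm5 belongs to group I, couples to Gq and phospholipase C, and sits mainly beside the postsynaptic density, where Homer proteins hold it. The receptors encoded by Grm2 and Grm3 form group II, and those of Grm4, Grm7 and Grm8 are members of group III. Both of these groups couple to Gi/o, lower cyclic AMP and restrain transmitter release. In the hippocampus Grm2 is known as a gene of dentate granule cells and their mossy fibre terminals, Grm3 is expressed by glia as well as by neurons, and Grm7 encodes a receptor of the presynaptic active zone.

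The 6 genes lie on separate stretches of 5 chromosomes in the mouse build GRCm38 (mm10), by the GENCODE M21 annotation. Grm5 (ENSMUSG00000049583) spans chr7:87584168-88134907 on the plus strand. Grm2 (ENSMUSG00000023192) is the most compact, at chr9:106643095-106656082 on the minus strand, a length of 13.0 kb. Grm3 (ENSMUSG00000003974) occupies chr5:9485541-9725170 on the minus strand. Grm4 (ENSMUSG00000063239) lies at chr17:27422387-27521403, also on the minus strand. Grm7 (ENSMUSG00000056755), the longest at 921.6 kb, runs along chr6:110645581-111567230 on the plus strand. Grm8 (ENSMUSG00000024211) is on the same chromosome at chr6:27275119-28135178, on the minus strand. All are protein-coding. An antisense gene, Gm28111, overlaps Grm2 by 470 bases, and another, Gm20387, overlaps Grm7 by 336 bases. The sources used here do not say whether the counting used strand, so reads of these pairs cannot be told apart within the shared bases.

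The promoters of the genes whose levels differed by the largest amounts between groups are shown because the sections below turn on them. Each is the 250 bases before an annotated transcription start in RefSeq on GRCm38.p6, written 5′ to 3′ on the gene's own strand, with matches to the GC box GGGCGG on either strand in capitals. Of the 6 genes, 4 had a RefSeq promoter entry. For Grm8, which has several annotated starts, the most upstream is shown. The windows lie at chr9:106656110-106656359 for Grm2, chr5:9725353-9725602 for Grm3 and chr6:28135147-28135396 for Grm8, each on the minus strand.
Grm2: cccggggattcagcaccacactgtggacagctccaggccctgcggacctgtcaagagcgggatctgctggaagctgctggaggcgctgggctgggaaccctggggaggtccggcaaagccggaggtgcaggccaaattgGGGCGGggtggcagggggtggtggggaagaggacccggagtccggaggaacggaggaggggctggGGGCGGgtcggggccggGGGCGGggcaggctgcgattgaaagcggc
Grm3: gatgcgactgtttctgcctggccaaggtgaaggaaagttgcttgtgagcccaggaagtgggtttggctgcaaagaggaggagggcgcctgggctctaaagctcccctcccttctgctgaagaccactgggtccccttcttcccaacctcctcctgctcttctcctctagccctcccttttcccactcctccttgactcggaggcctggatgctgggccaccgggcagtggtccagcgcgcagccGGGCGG
Grm8: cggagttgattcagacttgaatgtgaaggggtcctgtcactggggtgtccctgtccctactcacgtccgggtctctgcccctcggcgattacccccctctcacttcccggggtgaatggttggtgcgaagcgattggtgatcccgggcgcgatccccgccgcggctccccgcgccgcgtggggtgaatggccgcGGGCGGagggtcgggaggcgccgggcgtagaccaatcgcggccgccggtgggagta
The Grm2 window held 3 GC boxes, and the Grm3 and Grm8 windows held 1 each. Of 32851 promoter windows of the same length, 32.7% held at least 1 GC box. None of the 3 windows shown held the CRE half-site TGACG, the glucocorticoid half-site AGAACA or the E-box CACGTG on either strand, letters found in 17.8%, 16.1% and 6.0% of all windows. These windows were rich in G and C, with 71.2% for Grm2, 62.4% for Grm3 and 68.4% for Grm8, against a median of 52.4% over all windows. The other 2 annotated starts of Grm8, not shown, held no GC box. The next downstream (54.4% G and C) held 1 CRE half-site, and the most downstream (43.6%) held 1 glucocorticoid half-site. A match or its absence describes only the letters of the window.

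Each library held between 18277208 and 23083678 counts. Markers of CA pyramidal cells summed to between 1380 and 1960 CPM (counts scaled to library size, with TMM factors) in the 12 libraries, and no marker of the lists used was at 0 in all libraries. Markers of neighbouring tissue varied widely. F0_Ctl 3 and F1_Ctl 3 held 4970 and 9020 CPM of choroid plexus markers, against at most 602 CPM in the other libraries of their groups, and the F1_Dep libraries held 2780 to 4480 CPM against 34.4 to 254 CPM in F0_Dep. F1_Dep 1 held 1540 CPM of striatal markers, against 377 and 283 CPM in F1_Dep 2 and 3 and 198 to 291 CPM in the 9 libraries of the other groups. Values without F0_Ctl 3, F1_Ctl 3 and F1_Dep 1 are given where a result rests on them; F1_Dep 2 and 3, with 4476 and 4112 CPM of choroid plexus markers, stay in those fits. Nothing in these bulk samples tells fewer cells of a type from less RNA per cell.

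Per unit of transcript length, Grm5 was the most abundant of the 6 receptors in every group with deposited FPKM (fragments scaled to transcript length and library size), and Grm8 had the lowest mean in each. Grm5 read 36.0, 35.8 and 38.1 FPKM in F1_Dep, 50.6, 59.6 and 52.6 FPKM in F0_Dep, and 33.4, 49.8 and 28.2 FPKM in F0_Ctl. Grm8 read 4.72, 2.35 and 2.33 FPKM in F1_Dep, 0.863, 1.20 and 1.18 FPKM in F0_Dep, and 1.07, 3.00 and 0.988 FPKM in F0_Ctl. The order of the receptors between them differed among the groups. In F1_Dep the order of mean FPKM was Grm5, Grm3 (14.0), Grm7 (12.3), Grm2 (7.31), Grm4 (3.95) and Grm8. In F0_Dep it was Grm5, Grm7 (17.1), Grm2 (16.5), Grm3 (7.07), Grm4 (2.15) and Grm8, and in F0_Ctl Grm2 (23.5) stood second, ahead of Grm7 (12.8), Grm3 (9.78) and Grm4 (2.95). Neighbours whose libraries overlapped within a group were Grm7 with Grm2, Grm2 with Grm4 and Grm4 with Grm8 in F1_Dep, Grm7 with Grm2 in F0_Dep, and Grm7 with Grm3 and Grm4 with Grm8 in F0_Ctl.

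**Figure D1:**
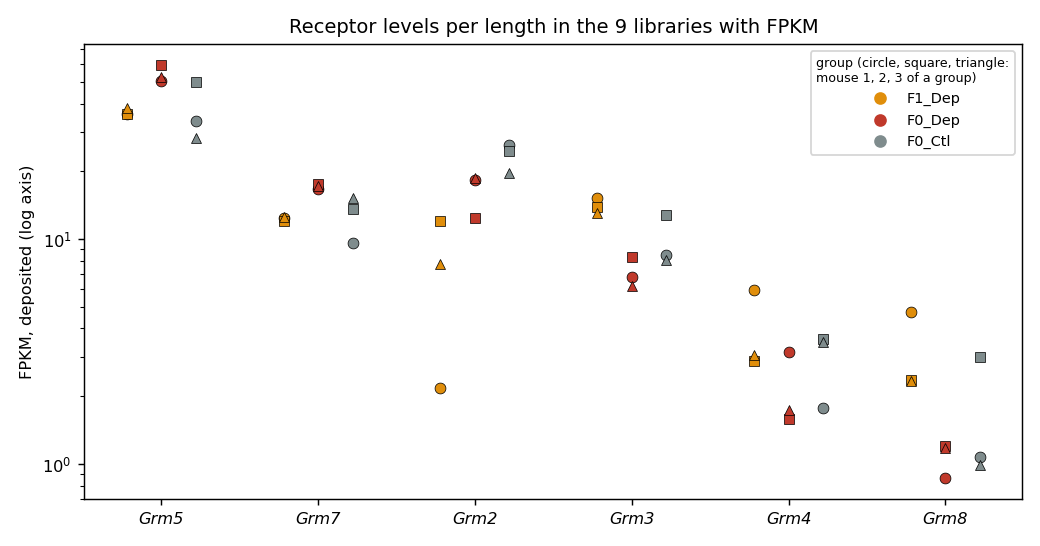
Deposited FPKM (log axis) of the 6 receptors in each library of F1_Dep, F0_Dep and F0_Ctl; circles, squares and triangles are mice 1, 2 and 3 of a group. Grm5 lies highest in every library, Grm3 is at 13.1 to 15.2 FPKM in F1_Dep against 6.17 to 8.30 FPKM in F0_Dep, and Grm2 is lowest in F1_Dep 1, at 2.18 FPKM.

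Seen as shares of the FPKM summed over the 6 receptors, the pair of group II genes changed places between groups. Grm3 took 18.2% ± 1.52 of the sum in F1_Dep (SD, n = 3), 7.19% ± 0.969 in F0_Dep and 11.0% ± 0.733 in F0_Ctl. Grm2 took 9.39% ± 6.21 in F1_Dep, 16.9% ± 3.90 in F0_Dep and 27.2% ± 4.94 in F0_Ctl. In F1_Dep Grm3 thus exceeded Grm2 in all 3 libraries, whereas Grm2 exceeded Grm3 in every library of F0_Dep and F0_Ctl. Grm5 took 47.4% ± 2.09 in F1_Dep, 55.2% ± 3.49 in F0_Dep and 41.7% ± 4.59 in F0_Ctl. Grm8, the smallest part, took 4.06% ± 1.83 in F1_Dep, 1.1% ± 0.176 in F0_Dep and 1.81% ± 0.857 in F0_Ctl. Shares of a sum move together, and the sum itself was 77.3 ± 1.35 FPKM in F1_Dep, 98.2 ± 2.28 FPKM in F0_Dep and 87.9 ± 16.9 FPKM in F0_Ctl.

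Grm3 and Grm8 were higher in F1_Dep than in F0_Dep, and no receptor passed the test in any other comparison. Grm3 rose 2.02-fold, a log2 fold change of 1.02 ± 0.19 (SE; edgeR quasi-likelihood test over all genes, adjusted p = 0.0280). Grm8 rose 3.61-fold, by 1.85 ± 0.43 on the log2 scale (edgeR, adjusted p = 0.0455). That made 2 of 6 receptors called, beside 2.88% of all genes tested in this comparison. The groups differ both in the mouse's own stress and in generation and parentage, which cannot be told apart.

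Neither call outlasted the loss of a single mouse. Without any 1 of the 6 libraries of F1_Dep and F0_Dep, no receptor passed. Calls over all genes fell as well in these fits, from 465 of 16163 to between 8 of 16552 and 172 of 16487. Grm3 then had log2 fold changes of 0.93 to 1.13 with edgeR adjusted p of 0.0506 to 0.153, and Grm8 had 1.35 to 2.06 with adjusted p of 0.0644 to 0.163. With F0_Ctl 3, F1_Ctl 3 and F1_Dep 1 all left out, both passed, Grm3 at 0.93 ± 0.18 (edgeR, adjusted p = 0.0119) and Grm8 at 1.34 ± 0.36 (adjusted p = 0.0449). F0_Ctl 3 and F1_Ctl 3 are in neither group of this comparison and bear on it only through the fit shared by all groups. Without F1_Dep 1 alone the changes were much the same, 0.94 and 1.35, and did not pass (edgeR, adjusted p = 0.106 and 0.160). In the fit without the 3 libraries Grm2, Grm5 and Grm7 passed as well, all lower in F1_Dep, which made 5 of 6 receptors beside 8.29% of all genes.

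**Figure D2:**
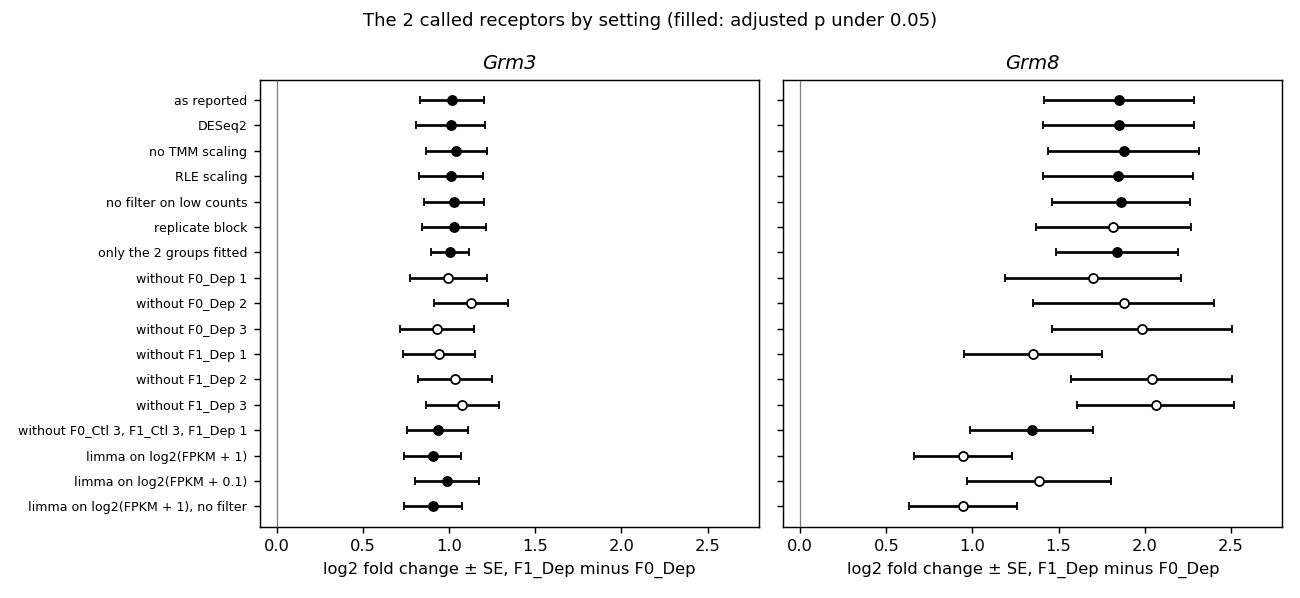
Log2 fold change with SE of Grm3 and Grm8 between F1_Dep and F0_Dep as reported and under 16 alternatives; filled points had an adjusted p under 0.05. Grm3 stays between 0.90 and 1.13 and passed under 10 of 16 alternatives; Grm8 lies between 0.94 and 2.06 and passed under 6.

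**Figure D3:**
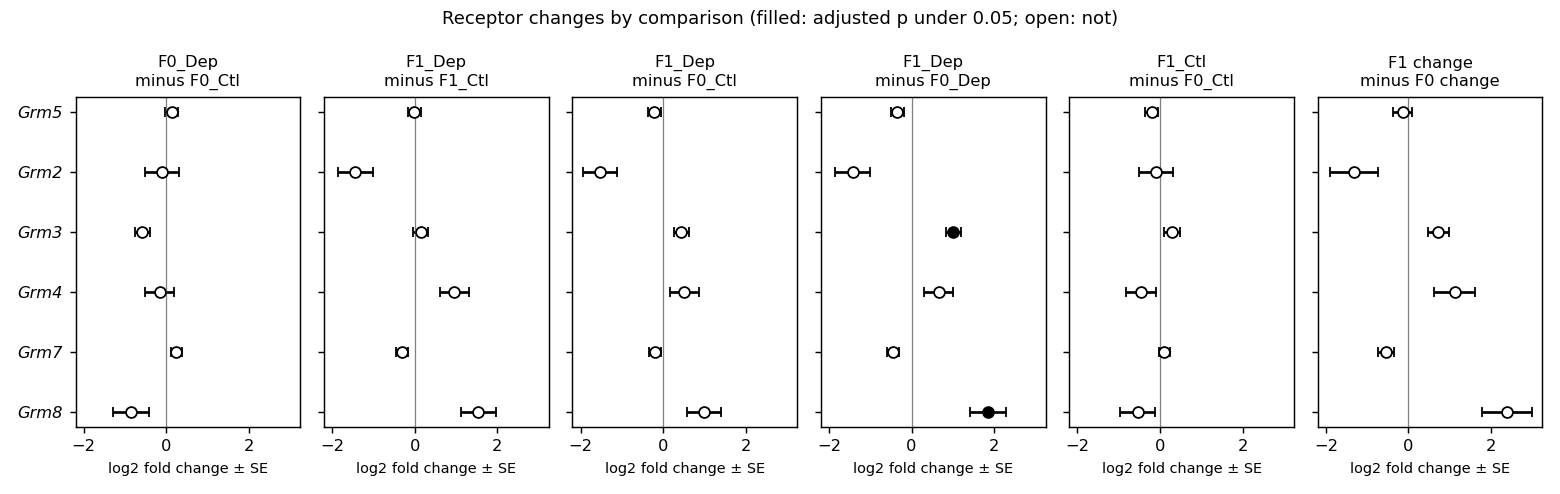
Log2 fold change with SE of each receptor in 5 comparisons and in the interaction (the F1 change minus the F0 change), from edgeR on counts; positive values are higher in the group named first. Filled points, Grm3 and Grm8 in F1_Dep minus F0_Dep, had an adjusted p under 0.05, and the other points did not.

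In group I, Grm5 ranged from 204 to 355 CPM over the 12 libraries. It read 260, 246 and 249 CPM in F1_Dep and 277, 280 and 204 CPM in F1_Ctl. Among the older generation it read 295, 355 and 310 CPM in F0_Dep and 304, 345 and 227 CPM in F0_Ctl. The 3 F1_Dep libraries all lay under the 3 F0_Dep libraries, and the other pairs of groups compared overlapped. Grm5 averaged 252 ± 7.48 CPM in F1_Dep and 320 ± 31.6 CPM in F0_Dep (SD, n = 3 each), a log2 fold change of -0.35 ± 0.16 that did not pass (edgeR, adjusted p = 0.217). The F1_Dep to F1_Ctl difference was -0.011 ± 0.16 (adjusted p = 0.986), and it changed sign under several alternatives. Against F0_Ctl it was -0.21 ± 0.16 (adjusted p = 0.607).

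The deposited measures disagreed for Grm5 between F0_Dep and F0_Ctl. In CPM the libraries of these groups overlapped, with a log2 fold change of 0.13 ± 0.16 (edgeR, adjusted p = 0.670). In FPKM all 3 F0_Dep libraries, at 50.6 to 59.6, lay above all 3 F0_Ctl libraries, at 28.2 to 49.8, and the change of log2(FPKM + 1) was 0.57 ± 0.18 (limma, adjusted p = 0.0493). That test called 19.2% of all genes in this comparison. The count difference also turned to -0.012 ± 0.14 without F0_Ctl 3, whose 227 CPM was the lowest of the group. The cause of the disagreement was not tested.

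In group II, Grm2 had its lowest level in F1_Dep. It read 8.23, 42.9 and 30.4 CPM in F1_Dep and 97.0, 57.3 and 66.5 CPM in F1_Ctl. F0_Dep libraries held 78.4, 60.7 and 80.5 CPM, and F0_Ctl libraries held 89.4, 82.6 and 64.2 CPM. Every F1_Dep library lay below every library of the other 3 groups, whose levels overlapped one another, and F1_Dep 1 was by far the lowest of the 12. The log2 fold change was -1.43 ± 0.42 against F1_Ctl (edgeR, adjusted p = 0.155), -1.42 ± 0.42 against F0_Dep (adjusted p = 0.0795) and -1.53 ± 0.42 against F0_Ctl (adjusted p = 0.173), none past the threshold. Without F1_Dep 1 these were -1.01 ± 0.24, -0.99 ± 0.24 and -1.10 ± 0.24, with adjusted p of 0.209, 0.121 and 0.227. With F0_Ctl 3, F1_Ctl 3 and F1_Dep 1 left out, Grm2 passed against F0_Dep (-1.002 ± 0.22, adjusted p = 0.0231) and F0_Ctl (-1.23 ± 0.24, adjusted p = 0.0225; 3.87% of all genes passed there) and not against F1_Ctl (-1.08 ± 0.24, adjusted p = 0.0503).

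Markers of dentate granule cells moved with Grm2. The 9 of them summed to 199, 535 and 391 CPM in F1_Dep and to 1010, 788 and 840 CPM in F1_Ctl. They summed to 889, 722 and 988 CPM in F0_Dep and to 912, 819 and 608 CPM in F0_Ctl. As with Grm2, each F1_Dep library lay below all others and F1_Dep 1 was lowest. Prox1, the transcription factor that marks granule cells, read 38.4, 113 and 71.2 CPM in F1_Dep against 240, 161 and 165 CPM in F1_Ctl. The part of granule cell content in the Grm2 values was not tested.

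Grm3 followed another order, with its lowest level in F0_Dep. It read 51.8, 45.8 and 43.0 CPM in F1_Dep and 30.4, 45.4 and 50.7 CPM in F1_Ctl. In the F0 groups it read 22.7, 26.5 and 20.3 CPM in F0_Dep and 32.8, 41.3 and 29.3 CPM in F0_Ctl. Every F0_Dep library lay below every library of the 3 other groups, and F1_Dep also lay apart from F0_Ctl. Means were 46.9 ± 4.50 CPM in F1_Dep, 42.1 ± 10.5 CPM in F1_Ctl, 23.2 ± 3.13 CPM in F0_Dep and 34.5 ± 6.16 CPM in F0_Ctl. Between F0_Dep and F0_Ctl the log2 fold change was -0.57 ± 0.19 (edgeR, adjusted p = 0.133), and between F1_Dep and F0_Ctl it was 0.44 ± 0.18 (adjusted p = 0.344). F1_Dep and F1_Ctl overlapped, at 0.15 ± 0.18 (adjusted p = 0.752). In FPKM the rise of Grm3 in F1_Dep over F0_Dep was 0.90 ± 0.16 on the log2(FPKM + 1) scale (limma, adjusted p = 0.0188, a test that called 10.7% of all genes).

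Glial markers were read beside Grm3. Markers of oligodendrocytes summed to 5480 to 6570 CPM over 7 genes in F1_Dep, against 2600 to 2890 CPM in F0_Dep. Those of oligodendrocyte precursors summed to 411 to 421 CPM in F1_Dep against 260 to 290 CPM in F0_Dep. Both lists were higher in every F1_Dep library than in any F0_Dep library. Oligodendrocyte sums were 1963.8, 3638.5 and 5637.1 CPM in F0_Ctl and 3974.8, 4010.2 and 6700.4 CPM in F1_Ctl. F0_Ctl 1 thus had the lowest sum of all libraries, while its Grm3 (32.8 CPM) lay above F0_Dep. F0_Ctl 3 had the highest sum of its group and the lowest Grm3 there (29.3 CPM). In F1_Ctl the sums rose in the order of Grm3. Precursor sums, like Grm3, were lower in every F0_Dep library than in any library of the other groups. The precursor list's median log2 CPM, centred on the mean of the 12 libraries, did not set F0_Dep apart. It was -0.24 to -0.05 in F0_Dep, -0.24 in F0_Ctl 1 and -0.10 in F1_Ctl 1, and 0.16 to 0.23 in F1_Dep. The 9 astrocyte markers overlapped between F1_Dep and F0_Dep, at 1690 to 2020 CPM and 1810 to 1950 CPM. Astrocyte sums in F1_Ctl were 1701.8, 2501.0 and 2571.9 CPM, which also rose in the order of Grm3. In F0_Ctl they were 2321.7, 1842.9 and 1540.1 CPM, not in its order. The part of oligodendrocyte, precursor or astrocyte content in the Grm3 values was not tested.

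In group III, Grm8, the receptor with the lowest mean FPKM, was at its highest level in F1_Dep. It read 14.2, 6.46 and 6.12 CPM in F1_Dep and 3.30, 3.03 and 2.84 CPM in F1_Ctl. Levels were 1.95, 2.55 and 2.89 CPM in F0_Dep and 2.85, 7.79 and 2.72 CPM in F0_Ctl. All 3 F1_Dep libraries were above all libraries of F1_Ctl and F0_Dep, while F0_Ctl 2 lay among them. The lowest count behind a value was 36 reads, in F0_Dep 1, and the highest was 276, in F1_Dep 1. Against F1_Ctl the log2 fold change was 1.54 ± 0.42, a 2.91-fold higher level that did not pass with edgeR (adjusted p = 0.135) and passed with DESeq2 (1.55 ± 0.44, adjusted p = 0.0173). Against F0_Ctl it was 0.998 ± 0.42 (edgeR, adjusted p = 0.345), or 1.67 ± 0.36 without F0_Ctl 2 (adjusted p = 0.122). Without F1_Dep 1 the change was 1.04 ± 0.40 against F1_Ctl (adjusted p = 0.387) and 1.35 ± 0.40 against F0_Dep (adjusted p = 0.160).

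F1_Dep 1, the library with the highest Grm8, also carried the striatal markers described above. Drd1, the dopamine receptor of striatal projection neurons, read 49.8, 9.25 and 6.30 CPM in F1_Dep, 8.13, 6.22 and 6.94 CPM in F1_Ctl, and 4.07, 3.10 and 4.31 CPM in F0_Dep. In the other 2 F1_Dep libraries Grm8 was also above every library of F1_Ctl and F0_Dep. Markers of neocortex, 7 genes, some of which hippocampal neurons also express, moved with Grm8 too. They summed to 540, 365 and 399 CPM in F1_Dep, 362, 349 and 304 CPM in F1_Ctl, 331, 311 and 341 CPM in F0_Dep, and 377, 425 and 289 CPM in F0_Ctl. As with Grm8, all F1_Dep libraries lay above F1_Ctl and F0_Dep and F1_Dep 1 was highest, while F0_Ctl 1 and 2 lay among the F1_Dep libraries. Striatal markers summed to 377 CPM in F1_Dep 2, above every library of the other groups, to 283 CPM in F1_Dep 3 and to 199.5 CPM in F0_Ctl 2. The part of striatal or neocortical tissue in the Grm8 and Grm4 values was not tested.

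Grm4 also had its highest mean in F1_Dep. It read 26.0, 12.7 and 13.9 CPM in F1_Dep and 11.7, 8.25 and 6.89 CPM in F1_Ctl. In F0_Dep it read 16.4, 8.31 and 8.40 CPM, and in F0_Ctl 8.09, 14.7 and 14.1 CPM. The F1_Dep libraries lay above the F1_Ctl libraries and overlapped both F0 groups, with F1_Dep 1 again the highest of the 12. The log2 fold change against F1_Ctl was 0.96 ± 0.36 (edgeR, adjusted p = 0.238), and 0.57 ± 0.34 without F1_Dep 1 (adjusted p = 0.558). Against F0_Dep it was 0.66 ± 0.35 (adjusted p = 0.289), and against F0_Ctl 0.51 ± 0.35 (adjusted p = 0.585).

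Grm7, the receptor of the active zone, was highest in F0_Dep and lowest in F1_Dep. It read 45.9, 43.2 and 43.3 CPM in F1_Dep and 63.3, 56.3 and 43.8 CPM in F1_Ctl. F0_Dep libraries held 55.8, 65.5 and 59.1 CPM against 42.9, 50.1 and 58.9 CPM in F0_Ctl. The F1_Dep and F0_Dep libraries lay apart, and the other pairs overlapped. The change between F1_Dep and F0_Dep was -0.45 ± 0.14 (edgeR, adjusted p = 0.0963; DESeq2, -0.45 ± 0.16, adjusted p = 0.0434). It was -0.30 ± 0.14 against F1_Ctl (edgeR, adjusted p = 0.340) and -0.20 ± 0.14 against F0_Ctl (adjusted p = 0.594). Markers of CA pyramidal cells moved the same way as Grm7 and Grm5 between F1_Dep and F0_Dep. The 9 of them summed to 1482, 1700 and 1691 CPM in F1_Dep and 1890, 1920 and 1848 CPM in F0_Dep, with no overlap. They summed to 1525, 1664 and 1379 CPM in F1_Ctl and to 1956, 1499 and 1390 CPM in F0_Ctl. F0_Ctl 1 thus had the highest sum of all libraries, and it had the lowest Grm7, 42.9 CPM. Wfs1 alone gave 424 CPM of that sum, against at most 252 CPM in any other library. The list's median log2 CPM, centred on the mean of the 12 libraries, ordered the libraries otherwise. It was -0.18 in F0_Ctl 1, against 0.24 to 0.37 in F0_Dep and -0.12 to 0.12 in F1_Dep. The part of pyramidal cell content in the Grm7 and Grm5 differences was not tested. Spread among mice of F1_Dep was small for Grm7, with a coefficient of variation of 3.5%, as it was for Grm5 (3.0%), whereas Grm2 varied by 64.6% and Grm8 by 51.2% in the same 3 libraries.

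**Figure D4:**
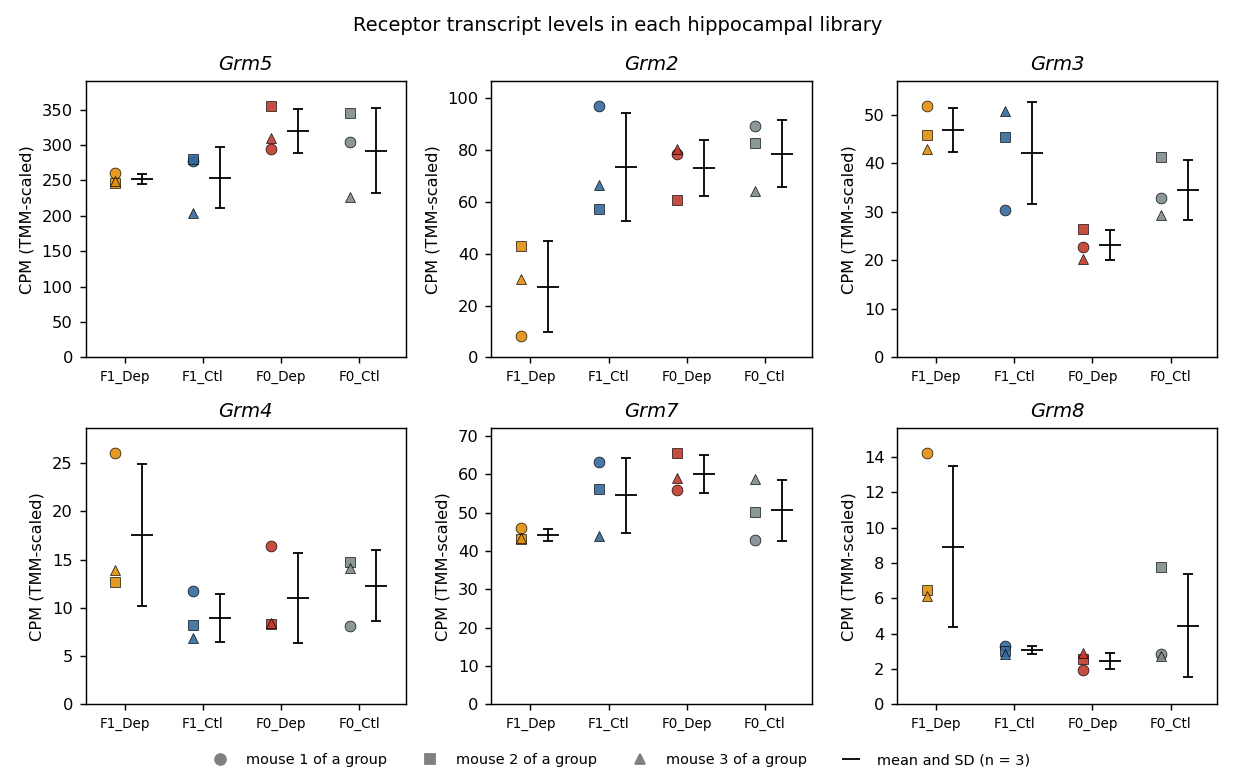
TMM-scaled CPM of each receptor in every library, with the mean and SD of 3 mice to the right of the points; y axes start at 0 and differ between panels. Grm2 is lowest in the 3 F1_Dep libraries (8.23 to 42.9 CPM), Grm3 is lowest in the 3 F0_Dep libraries (20.3 to 26.5 CPM), and F1_Dep 1 (circle) is highest for Grm4 and Grm8.

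Against F1_Ctl, which asks how the sons of stressed males differ from sons of normal males, no receptor passed in F1_Dep with edgeR, beside 0.167% of all genes. An unadjusted p under 0.05 was found for 3 of 6, Grm2, Grm4 and Grm8, beside 14.8% of all genes. The same 3 were those whose libraries did not overlap, a property of 19% of all genes. DESeq2 called 1, Grm8, beside 3.44% of all genes.

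Between F0_Dep and F0_Ctl, the comparison of stressed with normal males, edgeR called no receptor, beside 0.495% of all genes. Only Grm3 had an unadjusted p under 0.05 (19.7% of all genes did), and Grm3 was the single receptor whose CPM did not overlap (27.4% of all genes). DESeq2 called none, beside 6.84% of all genes. Grm2 (-0.11 ± 0.41), Grm4 (-0.16 ± 0.35) and Grm7 (0.25 ± 0.14) overlapped in CPM, with edgeR adjusted p of 0.911, 0.843 and 0.355. Grm8 had -0.85 ± 0.43 (adjusted p = 0.300), or -0.18 ± 0.36 without F0_Ctl 2, the library with 7.79 CPM.

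Between F1_Dep and F0_Dep, 5 of 6 receptors had an unadjusted p under 0.05 and 5 did not overlap in CPM, beside 22.3% and 43% of all genes. DESeq2 called 4, adding Grm2 and Grm7, beside 9.28% of all genes. Against F0_Ctl, edgeR called no receptor in F1_Dep and no gene at all (0%). An unadjusted p under 0.05 was found there for 3 receptors, Grm2, Grm3 and Grm8, beside 12.9% of all genes, and Grm2 and Grm3 did not overlap, beside 19.6%. DESeq2 called no receptor in that comparison, beside 2.52% of all genes.

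In FPKM the libraries of 3 receptors did not overlap between F0_Dep and F0_Ctl, Grm5 and Grm7 higher and Grm2 lower in F0_Dep, beside 38.9% of all genes. Grm7 read 16.6, 17.6 and 17.2 FPKM in F0_Dep against 9.62, 13.5 and 15.3 FPKM in F0_Ctl, and Grm2 read 18.3, 12.4 and 18.8 FPKM in F0_Dep against 26.3, 24.6 and 19.7 FPKM in F0_Ctl. Neither passed, with limma adjusted p of 0.0654 for Grm7 and 0.414 for Grm2. The same 5 receptors that lay apart in CPM lay apart in FPKM between F1_Dep and F0_Dep, beside 47.3% of all genes. Of these, limma called Grm3. Grm8, called in counts, did not pass in FPKM (0.94 ± 0.28 on the log2(FPKM + 1) scale, limma, adjusted p = 0.0601). Between F1_Dep and F0_Ctl, Grm2 and Grm3 lay apart in FPKM, beside 20.6% of all genes, and limma called no receptor, beside 0.159% of all genes, with an unadjusted p under 0.05 for 3, beside 18% of all genes.

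The normal groups of the generations, F1_Ctl and F0_Ctl, overlapped for all 6 receptors, where 6.06% of all genes did not overlap. No receptor was called by edgeR (0% of all genes) or DESeq2, and none had an unadjusted p under 0.05, against 5.92% of all genes. Log2 fold changes ran from -0.54 ± 0.42 for Grm8 to 0.29 ± 0.18 for Grm3, with adjusted p of 0.756 to 0.955.

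Whether the F1 change differed from the F0 change was tested as an interaction, which edgeR called for no receptor, beside 0.0681% of all genes. An unadjusted p under 0.05 was found for 5 of 6, all but Grm5, beside 13.4% of all genes. The largest was Grm8, whose F1 change exceeded its F0 change by 2.39 ± 0.61 on the log2 scale (edgeR, adjusted p = 0.132; DESeq2, adjusted p = 0.0101, the 1 receptor it called, beside 3.08% of all genes). Grm3 had 0.73 ± 0.26 (adjusted p = 0.254), Grm4 1.12 ± 0.50 (0.360), Grm7 -0.55 ± 0.20 (0.253) and Grm2 -1.33 ± 0.58 (0.349). The F1 changes are thus not shown by edgeR to differ from the F0 changes.

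Of 87 listed genes for receptor scaffolds, the Gq and Gi/o branches, receptor regulators and glutamate handling, 84 were tested and Plcb3, Gng3 and Grk5 were not analysed here. Between F0_Dep and F0_Ctl 1 rose and 1 fell, 2 of 84 beside 0.495% of all genes, with a median log2 fold change of 0.11 over the 84, against -0.035 over all genes. Between F1_Dep and F0_Dep 1 rose and 2 fell, 3 of 84 beside 2.88% of all genes, with a median of -0.084 against 0.0061. No listed gene passed edgeR in F1_Dep against F1_Ctl (median -0.010, against -0.019), in F1_Dep against F0_Ctl (0.022, against -0.014), in F1_Ctl against F0_Ctl (0.034, against 0.021) or in the interaction (-0.093, against 0.0021).

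Among scaffolds and trans-synaptic partners, Cacng2, which encodes the AMPA receptor auxiliary subunit stargazin, read 80.3, 78.9 and 81.6 CPM in F0_Dep and 48.1, 53.3 and 51.5 CPM in F0_Ctl. It rose by 0.65 ± 0.12 on the log2 scale (edgeR, adjusted p = 0.0474) and was the 1 of 14 listed genes called, though the adjusted p ran from 0.0416 to 0.225 with single libraries left out. Homer1, the scaffold that binds the group I receptors, did not pass. It read 229, 201 and 230 CPM in F1_Dep, 124, 129 and 121 CPM in F1_Ctl, 134, 149 and 139 CPM in F0_Dep, and 169, 161 and 98.4 CPM in F0_Ctl. All 3 F1_Dep libraries lay above all 9 others, with log2 fold changes of 0.82 ± 0.16 against F1_Ctl (edgeR, adjusted p = 0.0674), 0.64 ± 0.16 against F0_Dep (0.0523) and 0.62 ± 0.16 against F0_Ctl (0.162). Taken 1 comparison at a time, 19%, 43% and 19.6% of all genes did not overlap. The share that lay apart from all 9 was not counted.

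In the Gq branch no gene of 16 tested passed in F1_Dep against F1_Ctl or against F0_Ctl. Mapk3, which encodes an extracellular signal-regulated kinase, averaged 97.0 ± 11.9 CPM in F1_Dep and 146 ± 17.96 CPM in F1_Ctl (SD, n = 3 each), a change of -0.59 ± 0.13 that missed the threshold (edgeR, adjusted p = 0.0886). Between F1_Ctl and F0_Ctl its change was 0.33 ± 0.13 (adjusted p = 0.750). Daglb, a diacylglycerol lipase, averaged 30.3 ± 0.224 CPM in F1_Dep and 38.1 ± 3.54 CPM in F0_Ctl, a change of -0.33 ± 0.10 (adjusted p = 0.214). Plcb4, a phospholipase C beta, averaged 39.1 ± 11.2 CPM in F1_Dep and 27.5 ± 8.10 CPM in F0_Ctl, a change of 0.50 ± 0.25 (adjusted p = 0.435).

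In the Gi/o branch, 2 of 20 tested genes were lower in F1_Dep than in F0_Dep. Kcnj6, a subunit of the potassium channel opened by G protein beta-gamma, read 30.0, 47.8 and 46.1 CPM in F1_Dep and 81.6, 78.0 and 95.6 CPM in F0_Dep, a change of -1.04 ± 0.23 (edgeR, adjusted p = 0.0398). Kcnj6 read 37.9, 54.7 and 37.2 CPM in F0_Ctl and 61.6, 49.3 and 34.3 CPM in F1_Ctl. Both of these groups overlapped F1_Dep and lay below every F0_Dep library. Gng2, a G protein gamma subunit, read 243, 290 and 253 CPM in F1_Dep and 374, 360 and 381 CPM in F0_Dep, a change of -0.50 ± 0.10 (edgeR, adjusted p = 0.0351). Gng2 read 341, 306 and 331 CPM in F0_Ctl and 371, 363 and 294 CPM in F1_Ctl, all above F1_Dep. Both differences between F1_Dep and F0_Dep were found in FPKM too, at -1.15 for Kcnj6 (limma, adjusted p = 0.0263) and -0.61 for Gng2 (adjusted p = 0.0155). Leaving out single libraries gave edgeR adjusted p of 0.0648 to 0.171 for Kcnj6 and 0.0456 to 0.159 for Gng2. Against F0_Ctl, F0_Dep had 0.97 ± 0.23 for Kcnj6 (adjusted p = 0.0657) and 0.999 ± 0.24 for the adenylyl cyclase gene Adcy9 (adjusted p = 0.0662), neither past the threshold.

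No receptor regulator of 18 tested and no glutamate-handling gene of 16 tested passed in any comparison with edgeR. Between F0_Dep and F0_Ctl the nearest were Rgs8, a regulator of G protein signalling (0.62 ± 0.12, adjusted p = 0.0512), and Prkg1, a cGMP-dependent kinase (2.01 ± 0.44, adjusted p = 0.0585). Of the glutamate-handling genes, the nearest in that comparison were the vesicular transporter gene Slc17a8 (0.59 ± 0.16, edgeR adjusted p = 0.0877) and the cystine-glutamate exchanger gene Slc7a11 (0.55 ± 0.15, adjusted p = 0.0988). Slc7a11 was at 19.7 ± 2.40 CPM in F1_Dep and 29.9 ± 2.40 CPM in F0_Dep, a change of -0.60 ± 0.15 (adjusted p = 0.0554), and at -0.58 ± 0.15 in F1_Dep against F1_Ctl (adjusted p = 0.124).

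Genes whose log2 CPM ran closely with each receptor over the 12 libraries were taken from 12581 genes by Pearson's r, as a description. These libraries share groups and tissue make-up, so a high r can arise from 1 group or library. Grm2 ran with Il20rb (r = 0.987) and Trpc6 (0.984). Without F1_Dep 1 and F1_Dep 3 these were 0.874 and 0.851. Grm3 ran with Cyp51 (0.947), Skap2 (0.938) and Taf7 (0.934), and Grm5 with Vezt (0.941), Wdr44 (0.904) and Sept3 (0.899). Grm7 ran with Napg (0.922) and Lgi1 (0.918). Grm8 ran with Garnl3 (0.954), Kctd8 (0.946) and Sorcs1 (0.939), at 0.870, 0.833 and 0.863 without F1_Dep 1 and F0_Ctl 2. Grm4 ran with Cntn6 (0.919) and Asic1 (0.908), at 0.859 and 0.781 without F1_Dep 1 and F1_Ctl 3.

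**Figure D5:**
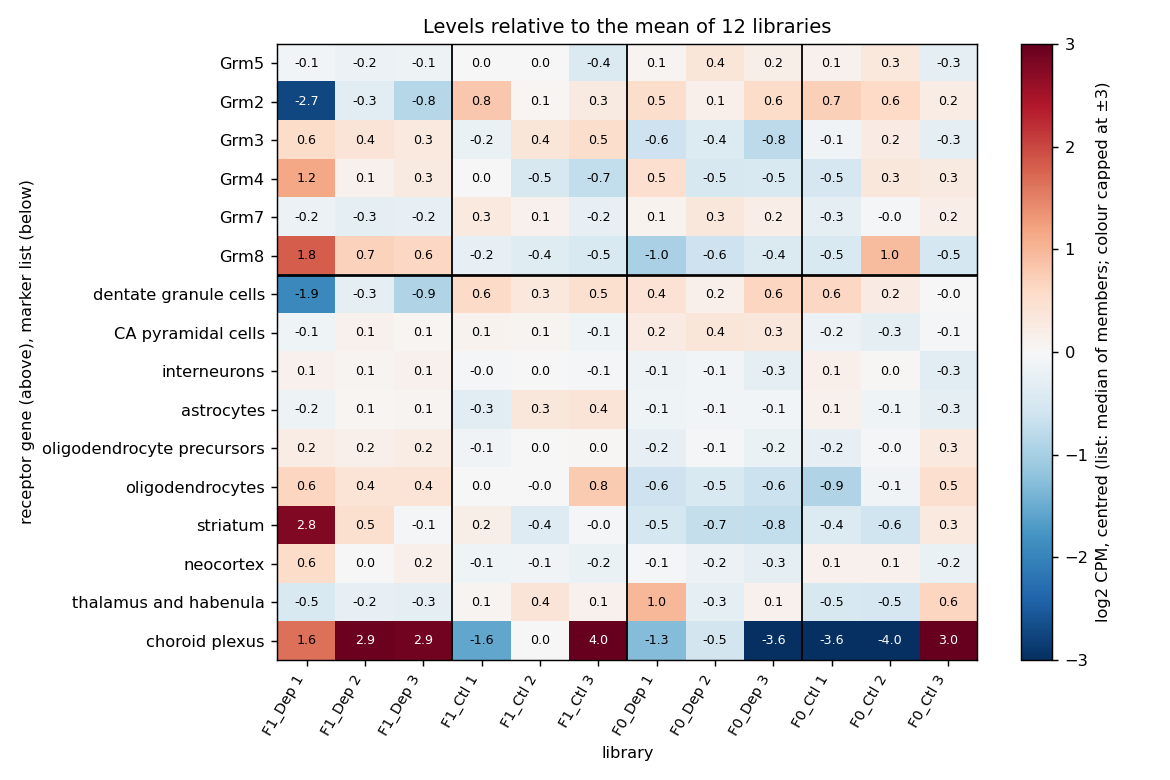
Log2 CPM of each receptor (upper 6 rows) and median log2 CPM of 10 marker lists (lower rows) in each library, each centred on its mean over the 12 libraries; the colour is capped at 3 in either direction and numbers are printed in the cells. The dentate granule cell list and Grm2 are lowest in F1_Dep 1 (-1.94 for the list), where the striatal list is highest (2.78), and the choroid plexus list is high in F0_Ctl 3, F1_Ctl 3 and all F1_Dep libraries.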

How the data were processed

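The authors deposited expected counts, which are estimates and can hold fractions, for 35812 Ensembl IDs and 12 libraries, and FPKM per gene for 9 libraries, those of F1_Dep, F0_Dep and F0_Ctl. FPKM of F1_Ctl were not used here. HISAT2, Cufflinks 2.2.1 and mm10 are named, without roles, per the submitters' processing notes; libraries were made with a stranded mRNA kit per the labels' protocols, and the sources used here do not name the counting tool. Gene symbols were found for 35202 IDs and none for 610, which held 0.579% of the counts; 37 IDs that shared a symbol with another were added to it. Per-sample columns left unused numbered 0.

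Counts were rounded and tested in edgeR 4.0.16 (R 4.3.3) with TMM scaling, filterByExpr and 1 quasi-likelihood fit of all 4 groups, with Benjamini-Hochberg adjustment over 16163 genes and a threshold of 0.05. Standard errors are approximate, being the log2 fold change divided by the root of F. The test of FPKM was limma 3.58.1, applied to log2(FPKM + 1) for the 13819 genes that reached an FPKM of 1 in 3 or more libraries; genes missing from a library's list were taken as 0. Fold changes on that scale understate the change of low genes. CPM are counts scaled by TMM library sizes; log2 CPM used a prior count of 2.

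The receptors, pathway lists and marker lists were chosen with earlier results of these data known. The receptors were named in every comparison; of each pathway list, called genes were named, and otherwise those with the smallest p. Some of the genes these rules pick are not reported here, though counts over a list include them. DESeq2 1.42.0, other scalings and filters, a replicate block, fits of 2 groups and fits without single libraries were alternatives. The tests were checked on simulated counts. No pair of libraries of the same group agreed within sampling noise. The labels state independent mice.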

Additional observations from a re-analysis of the deposited data

How the results depend on the processing

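Of 92 recounts of the called receptors under other settings, 74 kept the reported number and 18 did not. Between F1_Dep and F0_Dep, the only comparison with a receptor called, 3 of 16 recounts kept the number and 13 did not. In the other comparisons the reported number was 0. Between F1_Dep and F0_Dep the reported 2 became 4 with DESeq2 and 5 with only the 2 groups fitted. It became 5 without F0_Ctl 3, F1_Ctl 3 and F1_Dep 1 together. It became 1 in each of 3 limma fits on FPKM (pseudocount of 1, of 0.1, and no filter on low values). With single libraries left out it became 0. Over all genes these fits called 1500 of 16163 (DESeq2), 3746 of 15540 (2 groups) and 1347 of 16255 (3 libraries left out). The limma fits called 1478 and 1057 of 13819 and 833 of 26385 genes, and those without single libraries 8 to 172. The reported 0 became 1 with DESeq2 for F1_Dep against F1_Ctl and for the interaction. It became 1 without the 3 libraries for F1_Dep against F0_Ctl (Grm2, beside 629 of 16255 genes). It also became 1 there for the interaction (Grm7, -0.85, edgeR adjusted p = 0.0223, beside 487 of 16255 genes). It became 1 for F0_Dep against F0_Ctl with limma on log2(FPKM + 1) (Grm5). The causes were not tested.

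The replicate numbers of the titles showed no consistent pairing of the mice. Correlations of same-numbered libraries' deviations ran from -0.177 to 0.499, and in no pair of groups were all above 0.1. The highest was that of F0_Ctl 3 with F1_Ctl 3. With 3 libraries per group, these values cannot exclude a batch or parentage shared by same-numbered mice. With the replicate block, 1 receptor was called between F1_Dep and F0_Dep, Grm3, beside 177 of 16163 genes. Grm8 had an adjusted p of 0.0668 in that edgeR fit. The block called 0 pathway genes between F0_Dep and F0_Ctl, beside 12 of all genes, and 1 between F1_Dep and F0_Dep.

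Directions reversed only for receptor differences that had not passed. Grm5 in F1_Dep against F1_Ctl became 0.037 without TMM, 0.0065 with the replicate block and -0.12 to 0.10 with single libraries left out. Grm5 in F1_Dep against F0_Ctl became 0.020, 0.021 and 0.020 in the 3 limma fits. Grm5 in F0_Dep against F0_Ctl became -0.011 without the 3 libraries. With single libraries left out, F0_Dep against F0_Ctl gave -0.22 to 0.012 for Grm2, -0.54 to 0.012 for Grm4 and -0.012 to 0.27 for Grm5. F1_Ctl against F0_Ctl gave -0.35 to 0.037 for Grm2, -0.80 to 0.13 for Grm8 and -0.017 to 0.23 for Grm7, and F1_Dep against F1_Ctl gave -0.036 to 0.33 for Grm3.

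Over all settings, pathway genes called ran from 0 to 21 between F0_Dep and F0_Ctl (2 reported), 0 to 8 between F1_Dep and F1_Ctl (0), 0 to 5 between F1_Dep and F0_Ctl (0), 0 to 27 between F1_Dep and F0_Dep (3), 0 to 1 between F1_Ctl and F0_Ctl (0) and 0 to 12 in the interaction (0). In the same order of comparisons, edgeR called 80, 27, 0, 465, 0 and 11 of all genes, and DESeq2 called 1105, 556, 408, 1500, 0 and 498. The 27 pathway genes between F1_Dep and F0_Dep came with only the 2 groups fitted, where 3746 of 15540 genes were called. Depth limits Grm8 most, with as few as 36 reads in a library.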
